A study of Mus musculus with 40 samples.

Results

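The acyl-CoA thioesterases described here are 10 genes, *Acot1*, *Acot2*, *Acot3*, *Acot4*, *Acot7*, *Acot8*, *Acot9*, *Acot11*, *Acot12* and *Acot13*, of the 20295 genes in the count table. They were picked by their symbols, and *Acot11* and *Acot12* also because their counts were higher after both treatments of the study. The treatment values of *Acot11* and *Acot12* are therefore a description with no test. *Acot3* reached the level that the filter on low counts asks for only in libraries of treated groups, so it is described without a test too. This leaves 7 genes tested in all comparisons, and 9, with *Acot11* and *Acot12*, tested between the diets. In treated mice the diet tests of *Acot11* and *Acot12* use the groups behind their choice, so those p-values are a description. *Acot12* reached the level of the filter in 3 control libraries and otherwise in treated groups. It passed the filter through treated groups, so its p-values between the diets are a description in all mice. The 3 other genes named *Acot* in the table are *Acot5*, *Acot6* and *Acot10*.

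An acyl-CoA thioesterase hydrolyses an acyl-CoA to a free fatty acid and coenzyme A, the reverse of what an acyl-CoA synthetase does. The enzymes sit in different compartments, so that each one sets acyl-CoA and free fatty acid levels where it is found. Brown adipose tissue (BAT) burns fatty acids to make heat, and ACOT11, also called Them1 or brown fat inducible thioesterase, is known for its rise in BAT in the cold. *Acot1* to *Acot6* form a cluster of related genes with 1 kind of protein fold. The other members have an unrelated fold, and ACOT11 and ACOT12 each carry a lipid-binding START domain besides. In liver, several genes of the cluster are known targets of the nuclear receptor PPARα.

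BAT of male mice was measured in 8 groups of 5 libraries, all from mice kept at 29 °C, which is thermoneutral, after 2 to 3 weeks of acclimation. C-3BO mice carry a ROSA26 transgene (*Gpr3* TTG, CAG promoter, C57BL/6NTac) for *Gpr3*, a receptor that raises cAMP without a ligand, and Cre under the *Ucp1* promoter (B6.FVB-Tg(Ucp1-cre)1Evdr/J), so that the transgene is switched on in cells that have used this promoter. Their controls were littermates that were heterozygous for the transgene without Cre or had Cre without the transgene, and both genotypes were 13 to 19 weeks old. The injected mice, which the labels call wildtype, were 15-week-old control littermates of an inducible line made with the same transgene and Ucp1-Cre/ERT2. They received CL-316,243 (CL), an agonist of the β3-adrenergic receptor, intraperitoneally at 1 mg/kg or saline at 10 µL/g, once a day for 9 days. Each of these 4 states was combined with chow or with high-fat diet (HFD, 60 kcal% fat) for 7 days, and the injections started 2 days before the diet changed. The groups are named Chow control, Chow C-3BO, HFD control, HFD C-3BO, Chow saline, Chow CL, HFD saline and HFD CL. The labels number the libraries of a group without naming the mouse, so p-values measure the spread between these libraries.

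Library totals lay between 849126 and 15260516 counts, and 3 counts, taken as the lowest level that the depth can show, were worth 0.197 to 3.53 counts per 1000000 counts (CPM). CPM were taken on library totals scaled by TMM factors, and a fit with library totals alone is one without those factors. Such limits, and the intervals of pooled counts given below, cover counting error only. *Gpr3* lay at 266 to 918 CPM in the 10 C-3BO libraries and at or below 9.15 CPM elsewhere, a value reached by Chow CL replicate 3. All 10 brown adipocyte markers were present in each group, with summed levels of 11823 to 33001 CPM. In 12 libraries, namely each HFD library of the injected mice and 2 of HFD C-3BO (replicates 4 and 5), the summed level of 12 liver markers was 87.2 to 434 CPM, against at most 5.78 CPM elsewhere, and 5 epididymis markers summed to 9.02 to 60.7 CPM, against at most 0.119 CPM. No liver marker was at 0 in those groups. The summed level of 6 skeletal muscle markers, none of them at 0 in any group, was 627 to 7576 CPM in Chow control, 352 to 2933 CPM in Chow C-3BO, 34.6 to 199 CPM in HFD control and 49.8 to 95.9 CPM in HFD C-3BO. In bulk tissue, fewer cells of a type and less RNA per cell cannot be told apart.

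The promoters of *Acot12* and *Acot4* are shown first because they hold the stretches closest to a nuclear receptor site. That of *Acot11* is shown because it is the more abundant of the 2 genes chosen for their treatment values. *Acot11* has 2 promoter windows, and the one shown is closer in its letters to such a site. Which of them belongs to the counted transcript was not checked. Every C-3BO library was above every control library on both diets for *Acot12* and *Acot4*. The same held for *Acot8*, whose window was the furthest from such a site among the members with a window. *Acot12* was chosen for its levels in these groups. The share of all tested genes whose groups were apart in this way was not taken. A lack of overlap, here and below, is therefore a description. The windows run from 250 bases before to 50 bases after the start of the gene and are RefSeq sequences on GRCm38.p6. RefSeq windows were matched for 9 of the 10 members, without *Acot13*. The capitals mark the stretch closest to DR1, the pair of half-sites AGGTCANAGGTCA to which PPARs and related nuclear receptors bind, on either strand.
*Acot12* (chr13:91741271-91741570, plus strand): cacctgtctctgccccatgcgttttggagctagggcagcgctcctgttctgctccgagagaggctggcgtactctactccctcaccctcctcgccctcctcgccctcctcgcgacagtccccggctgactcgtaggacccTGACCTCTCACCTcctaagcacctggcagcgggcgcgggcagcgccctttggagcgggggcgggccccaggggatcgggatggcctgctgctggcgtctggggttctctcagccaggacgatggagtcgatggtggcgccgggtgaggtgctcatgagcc
*Acot4* (chr12:84038129-84038428, plus strand): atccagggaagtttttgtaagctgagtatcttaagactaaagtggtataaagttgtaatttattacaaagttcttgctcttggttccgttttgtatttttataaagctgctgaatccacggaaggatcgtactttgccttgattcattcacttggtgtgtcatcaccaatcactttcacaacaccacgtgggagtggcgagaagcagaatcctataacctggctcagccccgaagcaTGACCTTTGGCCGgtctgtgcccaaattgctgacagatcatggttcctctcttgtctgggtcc
*Acot11* (chr4:106804958-106805257, minus strand): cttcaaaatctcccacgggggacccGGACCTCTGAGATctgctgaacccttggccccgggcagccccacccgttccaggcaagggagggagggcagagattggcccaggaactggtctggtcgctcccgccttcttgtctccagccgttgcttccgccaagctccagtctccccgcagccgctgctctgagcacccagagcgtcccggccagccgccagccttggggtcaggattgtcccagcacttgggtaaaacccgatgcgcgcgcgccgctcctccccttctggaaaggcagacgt

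The best stretch of *Acot12* began at position -110 from the start and differed from DR1 by 1 letter, and 0.554% of 32851 promoter windows hold a stretch that close or closer. The best stretch of *Acot4* began at position -13 and differed by 2 letters, which 3.86% of the windows reach. *Acot2*, *Acot3* and the *Acot11* window shown differed by 3 letters, which 24.6% of the windows reach. *Acot1*, *Acot7*, *Acot9* and the other window of *Acot11* differed by 4 letters, found in 79.8%, and *Acot8* by 5. The half-site AGGTCA, which is part of DR1, stood in the windows of *Acot12*, *Acot4* and *Acot3* and in 16.3% of all windows. The cAMP response element TGACGTCA stood in no member's window and in 1.79% of all windows. A match says only that the letters are there.

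Levels per length separated a few abundant genes from the rest. Per kilobase of counted exon, *Acot13*, which encodes a long-chain thioesterase of the cytosol and mitochondria also known as Them2, was at 283 CPM per kb in Chow control and made up 62.7% of the sum of the 10 members. *Acot11* followed at 78.4 CPM per kb (17.4%) and *Acot2*, for the enzyme of the mitochondrial matrix, at 30.3 CPM per kb. *Acot7*, *Acot9* and *Acot8* lay at 20.6, 20.3 and 16.2 CPM per kb. *Acot4* was at 2.09 CPM per kb, and *Acot1*, *Acot12* and *Acot3* were at 0.398, 0.391 and 0.0308 CPM per kb. In this order, the ranges of *Acot7* and *Acot9* overlapped, as did those of *Acot1* and *Acot12*, while *Acot13*, *Acot11*, *Acot2*, *Acot9* and *Acot8* were each apart from the next member below them in all 5 libraries. The share of *Acot11* was 41.4% in Chow C-3BO and 42.7% in Chow CL, where it stood above *Acot13* in 4 of 5 libraries, and their ranges overlapped. On HFD the share of *Acot11* was 17.7% in HFD control, 22.6% in HFD C-3BO, 14.7% in HFD saline and 27.5% in HFD CL, and *Acot13* was the highest member in each of these groups.

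**Figure D1:**
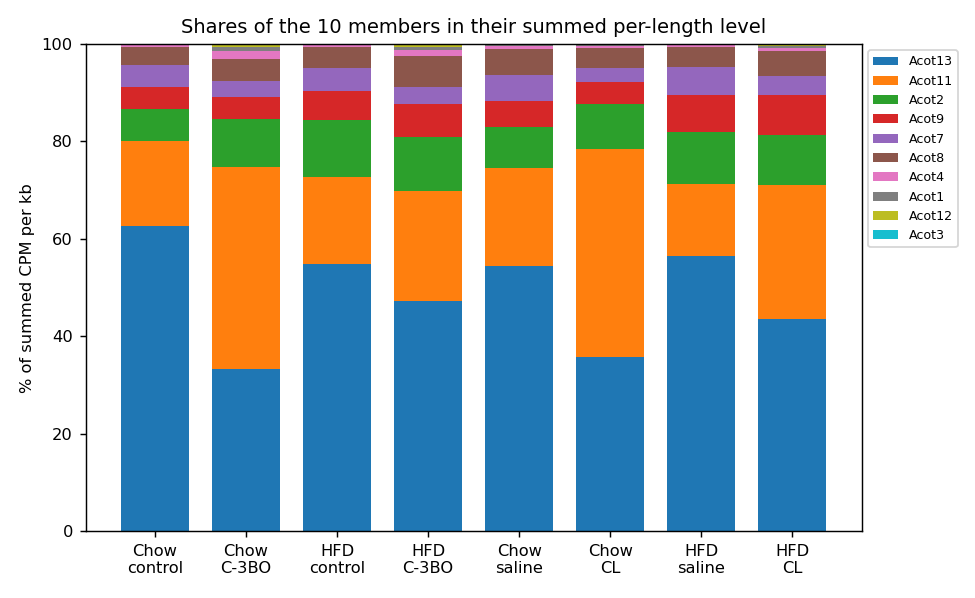
Share of each of the 10 genes in their summed level per kilobase (percent, y axis) in each group (x axis), from means of 5 libraries. *Acot13* holds 33.3% to 62.7% and *Acot11* 14.7% to 42.7% of the sum, and *Acot1*, *Acot3*, *Acot4* and *Acot12* together form a thin band.

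*Acot11* (RefSeq NM_025590, mm9 chr4:106417166-106472436, minus strand) was at 260.5, 354, 529, 274 and 310.1 CPM in replicates 1 to 5 of Chow control and at 874, 952, 1246, 742 and 1156 CPM in those of Chow C-3BO. It was at 331, 168, 274, 509 and 211 CPM in Chow saline and at 1076, 1012, 1044, 1042 and 559 CPM in Chow CL. On chow, each treated library was therefore above every library of its control group, with log2 fold changes of 1.52 ± 0.32 (SE) for C-3BO and 1.66 ± 0.33 for CL. Replicate 5 of Chow CL had the lowest *Acot11* of its group, and its *Ucp1* level was 1644 CPM against 5943 to 8986 CPM in the other 4. The log2 fold change with CL was 1.81 without this library and 1.63 without Chow CL replicate 3, the library with the highest *Gpr3* level outside the C-3BO groups.

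On HFD the C-3BO and control groups of *Acot11* overlapped, while the CL and saline groups did not. The levels were 150.1, 130.4, 299, 608 and 234 CPM in HFD control and 391, 246, 303, 808 and 439 CPM in HFD C-3BO, with a log2 fold change of 0.62 ± 0.32. On this diet the higher level with C-3BO, for which the gene was chosen, was one of the means only. Replicate 4 was the highest in both groups, and the log2 fold change was 1.10 without it in HFD control, 0.27 without it in HFD C-3BO and 0.14 when replicates 4 and 5 of that group were left out. HFD saline held 155, 172, 166, 151 and 336 CPM and HFD CL 528, 420.0, 489, 491 and 391 CPM, which did not overlap, with a log2 fold change of 1.23 ± 0.33. Exons of *Fam151a* on the opposite strand cover 20.8% of the exonic bases of *Acot11*, and *Fam151a* itself was at 0 to 0.323 CPM.

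*Acot12* (NM_028790, mm9 chr13:91881126-91925753, plus strand) encodes an acetyl-CoA hydrolase of the cytosol that is best known from liver, and it was low in all control groups. It was at 0.826, 1.32, 0.560, 1.39 and 1.60 CPM in Chow control and at 12.7, 6.37, 9.32, 6.86 and 7.16 CPM in Chow C-3BO. In HFD control it was at 0.144, 0.178, 0, 0.0739 and 0 CPM, and in HFD C-3BO at 5.71, 9.14, 5.14, 7.54 and 3.48 CPM. Every C-3BO library was above every control library on both diets. Summed over 5 libraries, 329 counts in Chow C-3BO stood against 60 in Chow control, a ratio of CPM-scaled counts of 7.30 with an exact 95% interval of 5.53 to 9.78. The 219 counts in HFD C-3BO stood against 5 in HFD control, a ratio of 79.0 with an interval of 33.3 to 246. These intervals, and those with CL below, cover counting error and not the spread between libraries. They describe a gene chosen for these values and are no test.

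CL separated the groups of *Acot12* as well, at lower levels. Chow saline held 0.216, 0.111, 0.0894, 0 and 0.170 CPM and Chow CL 1.67, 1.66, 2.96, 2.52 and 1.12 CPM. HFD saline held 0.413, 0.157, 0.364, 0 and 0.476 CPM and HFD CL 7.73, 7.47, 1.45, 4.46 and 2.91 CPM. The groups did not overlap on either diet, and the pooled ratios were 17.2 (7.66 to 47.9) from 111 and 6 counts on chow and 14.99 (7.91 to 32.0) from 138 and 10 counts on HFD. Liver markers moved with the HFD groups of this cohort, and liver expresses *Acot12*. HFD saline libraries, with liver sums of 87.2 to 256 CPM, had *Acot12* at or below 0.476 CPM, and HFD C-3BO replicates 1 to 3, which had liver sums of at most 4.90 CPM, had it at 5.14 to 9.14 CPM, and the part of liver transcripts in the values of HFD CL was not tested.

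**Figure D2:**
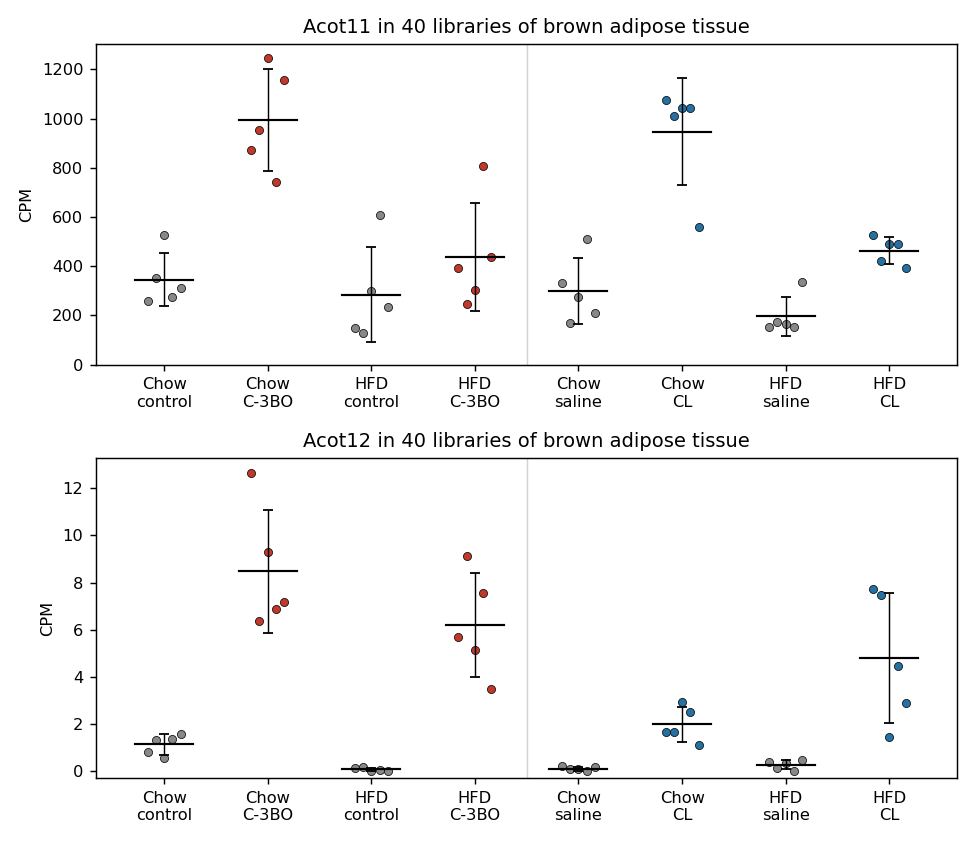
Levels of *Acot11* (top) and *Acot12* (bottom) in CPM (y axis) for each library, by group (x axis), with the group mean as a line and the SD as an error bar. Treated libraries stand above their controls for *Acot12* in each pair of groups, while for *Acot11* those of HFD C-3BO at 246 to 808 CPM overlap HFD control at 130.4 to 608 CPM.

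The transgene on chow moved most of the other members. Of 7 tested genes, 5 rose (*Acot1*, *Acot2*, *Acot4*, *Acot8* and *Acot9*), 1 fell (*Acot13*) and 1 did not pass (*Acot7*), where 15.8% of all 13277 tested genes rose and 15.9% fell by edgeR's quasi-likelihood test at an adjusted p-value of 0.05. Their median log2 fold change was 0.64, against -0.03 over all tested genes. On HFD 4 rose (*Acot1*, *Acot4*, *Acot8* and *Acot9*), none fell and 3 did not pass, where 19.3% of all tested genes rose and 15.5% fell, and the median was 0.47, against -0.02 over all.

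CL moved fewer. On chow 2 of the 7 rose (*Acot2* and *Acot9*) and 1 fell (*Acot7*), where 9.16% of all tested genes rose and 6.13% fell, with a median log2 fold change of 0.10 against -0.01 over all. Of 6 skeletal muscle markers, 5 fell in the same comparison, with a median log2 fold change of -4.02 and sums of 41.5 to 2075 CPM in Chow saline and 45.7 to 149 CPM in Chow CL, and their part in the calls of the members is given below only where the covariate ended a call. On HFD 2 rose (*Acot8* and *Acot9*) and none fell, where 12.7% of all tested genes rose and 10.8% fell, with a median of 0.46 against -0.01. Of 5 macrophage markers 2 fell there, with sums of 220 to 559 CPM in HFD saline and 90.8 to 290 CPM in HFD CL, and their part was not tested. The shares of 2 in 7 are small counts and cannot be set firmly against these backgrounds. Median library totals were 5775272 counts in HFD saline and 5669796 in HFD CL, against 12097359 in HFD control and 7349348 in HFD C-3BO. The part of depth in the lower number of calls was not tested.

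**Figure D3:**
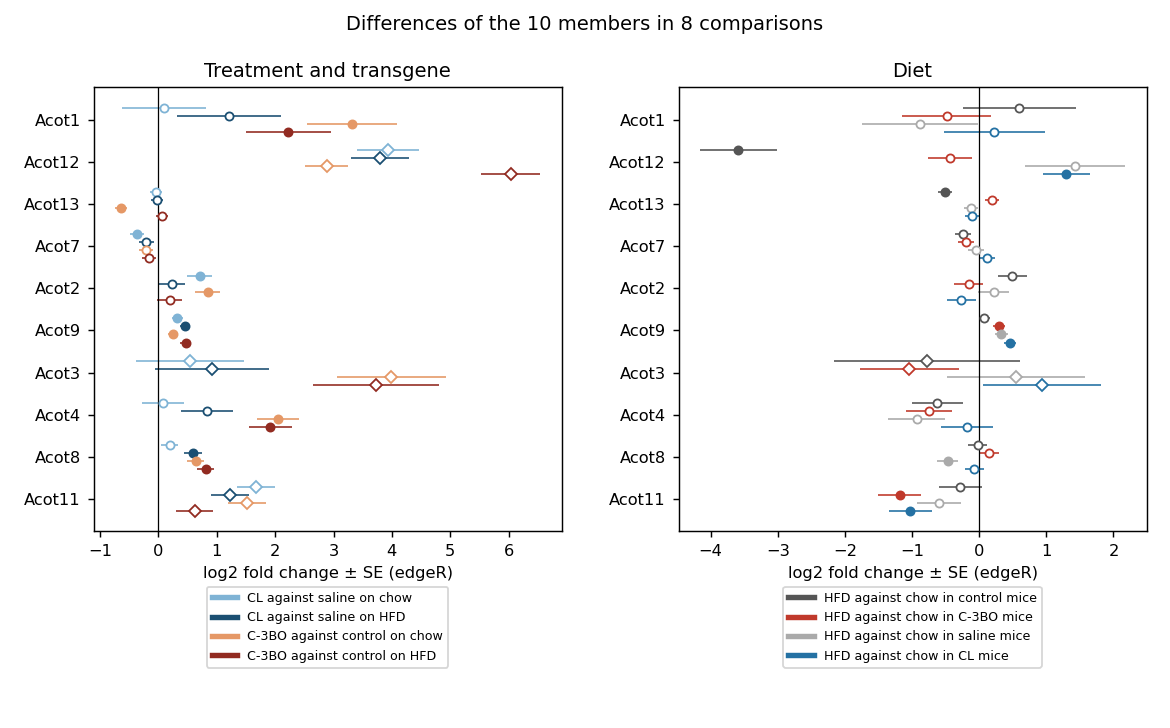
Log2 fold changes with their SE (x axis) of the 10 genes (y axis) in 4 comparisons of treatment or transgene (left) and 4 of diet (right), from edgeR over 40 libraries. Filled circles had an adjusted p-value under 0.05, open circles did not, and open diamonds are *Acot3*, and *Acot11* and *Acot12* in comparisons used to choose them, which were not tested. Circles of *Acot12* on the right, and those of *Acot11* there in C-3BO and CL mice, are a description. In C-3BO mice *Acot1* and *Acot4* lie at 1.92 to 3.31, and in control mice *Acot12* lies at -3.59 on HFD.

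The peroxisomal enzymes *Acot4* and *Acot8* rose with the transgene on both diets. *Acot4* (NM_134247, mm9 chr12:85379329-85385673) encodes a peroxisomal thioesterase that can use succinyl-CoA. It was at 5.04, 5.27, 5.37, 4.79 and 3.86 CPM in Chow control and at 38.0, 19.8, 19.1, 14.6 and 9.45 CPM in Chow C-3BO. In HFD control it was at 1.66, 1.60, 6.66, 2.96 and 2.74 CPM and in HFD C-3BO at 11.4, 18.4, 8.44, 13.7 and 7.78 CPM. The groups did not overlap on either diet, and the log2 fold changes were 2.04 ± 0.36 on chow (adjusted p = 3.59e-05) and 1.92 ± 0.37 on HFD (adjusted p = 0.000100). With CL they were 0.09 ± 0.36 on chow (adjusted p = 0.910) and 0.83 ± 0.44 on HFD (adjusted p = 0.174), and the ranges overlapped. Exons of *4732463B04Rik* on the other strand cover 24.5% of its exonic bases.

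*Acot8* (NM_133240, mm9 chr2:164618268-164630381, minus strand) encodes the broad peroxisomal thioesterase that also acts on bile acid-CoA. It was at 17.8, 17.1, 18.9, 20.1 and 19.2 CPM in Chow control and at 26.97, 31.6, 37.7, 26.0 and 22.8 CPM in Chow C-3BO. HFD control held 14.0, 15.4, 21.9, 21.7 and 18.6 CPM and HFD C-3BO 29.5, 37.4, 29.2, 35.9 and 28.7 CPM. All 5 C-3BO libraries were above all 5 controls on both diets, with log2 fold changes of 0.64 ± 0.14 (adjusted p = 0.000733) and 0.81 ± 0.14 (adjusted p = 2.85e-05). With CL, *Acot8* rose on HFD, from 11.6, 17.3, 14.3, 12.0 and 17.8 CPM to 27.7, 21.9, 16.9, 23.6 and 21.4 CPM, with 4 of 5 CL libraries above all saline libraries and a log2 fold change of 0.59 ± 0.16 (adjusted p = 0.00559). On chow its log2 fold change with CL was 0.19 ± 0.14 (adjusted p = 0.393). Exons of *Snx21*, at 35.0 to 87.7 CPM on the opposite strand, cover 12.2% of the exonic bases of *Acot8*.

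*Acot3* (NM_134246, mm9 chr12:85393101-85400514), for another peroxisomal enzyme, was near the limit of the depth. It had 28, 16, 8, 11 and 2 counts in Chow C-3BO against 4, 0, 0, 1 and 0 in Chow control, and 0, 14, 0, 4 and 9 in HFD C-3BO against 0, 0, 3, 0 and 0 in HFD control. Only 7 libraries reached the level of 1.10 CPM that the filter asks for, 3 of Chow C-3BO, 2 of HFD C-3BO and 2 of HFD CL, so the gene passed the filter only because it was high in some groups. The fitted log2 fold changes were 3.99 ± 0.93 on chow and 3.73 ± 1.08 on HFD and are a description. The ratios of pooled counts were 17.3 (7.05 to 55.1) on chow and 16.2 (4.99 to 83.6) on HFD, the latter from 27 and 3 counts. Without HFD C-3BO replicates 4 and 5, which carried liver and epididymis transcripts, the value on HFD was 3.20. With CL, *Acot3* was at 0.54 ± 0.92 on chow and 0.92 ± 0.98 on HFD.

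The cytosolic member of the cluster, *Acot1* (NM_012006, mm9 chr12:85350452-85358619), acts on long-chain acyl-CoA. It was at 0.413, 0.203, 0.448, 0.973 and 1.06 CPM in Chow control and at 13.4, 6.02, 5.14, 4.76 and 2.29 CPM in Chow C-3BO, with no overlap and a log2 fold change of 3.31 ± 0.78 (adjusted p = 0.00116). In HFD control it was at 0, 0.0889, 2.13, 1.18 and 1.31 CPM and in HFD C-3BO at 2.72, 10.7, 1.47, 4.28 and 2.87 CPM, with 4 of 5 C-3BO libraries above all controls and a log2 fold change of 2.23 ± 0.73 (adjusted p = 0.0164). This value on HFD fell to 1.53 and did not pass without HFD C-3BO replicate 2 (adjusted p = 0.131), nor did it pass without HFD control replicate 1 (1.87, adjusted p = 0.0525) or 2 (1.93, adjusted p = 0.0528). With CL, *Acot1* was at 0.10 ± 0.72 on chow and 1.21 ± 0.89 on HFD, with adjusted p-values of 0.954 and 0.354, and a single library of Chow saline (replicate 5, 5.10 CPM) was higher than all those of Chow CL.

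Counts within the chromosome 12 cluster may be split between its genes. Of all stretches of 50 bases in the transcripts of *Acot1*, 47.1% also occur in another gene of the cluster, as do 27.6% for *Acot2*, 12.1% for *Acot4* and 10.0% for *Acot3*. For *Acot9*, 20.2% are shared with *Acot10*. None is shared for *Acot7*, *Acot8*, *Acot11*, *Acot12* and *Acot13*.

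**Figure D4:**
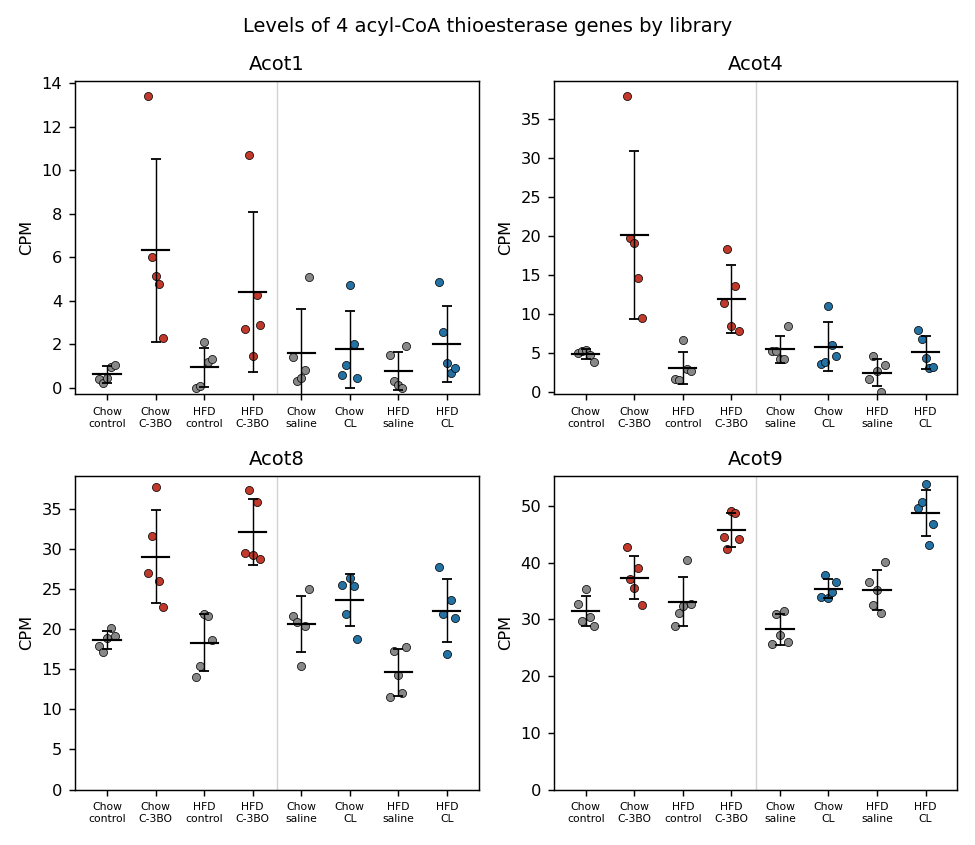
Levels of *Acot1*, *Acot4*, *Acot8* and *Acot9* in CPM (y axes) for each library, by group (x axis), with the group mean as a line and the SD as an error bar. *Acot4* and *Acot8* of the C-3BO groups lie above their controls in all libraries, and *Acot9* is highest in HFD CL, at 43.1 to 53.8 CPM, and HFD C-3BO, at 42.3 to 49.2 CPM.

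Of the mitochondrial enzymes, *Acot9* rose in all 4 comparisons. *Acot9* (NM_019736, mm9 chrX:151697043-151732050) was at 32.6, 29.8, 35.4, 30.5 and 28.8 CPM in Chow control and at 42.8, 37.0, 35.5, 39.0 and 32.5 CPM in Chow C-3BO, a log2 fold change of 0.25 ± 0.09 (adjusted p = 0.0286). On HFD it was at 28.9, 31.2, 32.4, 40.4 and 32.8 CPM in controls and at 44.5, 42.3, 49.2, 48.7 and 44.2 CPM in C-3BO, a log2 fold change of 0.47 ± 0.09 (adjusted p = 7.61e-05). The groups were apart on HFD and overlapped on chow, where the call was lost with library totals alone (0.06, adjusted p = 0.656), with the muscle sum as a covariate (0.22, adjusted p = 0.0666) and in a fit of these 10 libraries alone (0.26, adjusted p = 0.0732), without Chow C-3BO replicate 1 (0.20, adjusted p = 0.104), Chow C-3BO replicate 4, Chow control replicate 2 or Chow control replicate 5 (0.22 to 0.23, adjusted p = 0.0625 to 0.0754).

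With CL, *Acot9* was at 34.0, 37.8, 33.8, 34.9 and 36.6 CPM against 25.6, 30.9, 27.3, 31.6 and 25.9 CPM in Chow saline. On HFD it was at 49.6, 50.7, 53.8, 43.1 and 46.9 CPM against 36.5, 32.6, 35.2, 31.1 and 40.2 CPM in HFD saline. The groups did not overlap on either diet, with log2 fold changes of 0.33 ± 0.09 (adjusted p = 0.00931) and 0.46 ± 0.09 (adjusted p = 0.000343). The chow value was 0.18 with library totals alone, which lost the call (adjusted p = 0.150).

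*Acot2* (NM_134188, mm9 chr12:85328811-85334825), for the long-chain thioesterase of the mitochondrial matrix, rose with both treatments on chow. It was at 66.0, 59.7, 70.7, 69.3 and 67.4 CPM in Chow control and at 167, 110.3, 131, 97.2 and 91.9 CPM in Chow C-3BO, which did not overlap, with a log2 fold change of 0.84 ± 0.22 (adjusted p = 0.00337). Chow saline held 67.8, 49.1, 61.2, 61.0 and 75.1 CPM and Chow CL 115, 114, 92.8, 121 and 70.4 CPM, 4 of 5 CL libraries being above all saline libraries, with a log2 fold change of 0.71 ± 0.22 (adjusted p = 0.0242). The call for CL was lost without Chow saline replicate 2 (0.62, adjusted p = 0.0808) or 3, without Chow CL replicate 1, 2 or 4 (0.64 to 0.68, adjusted p = 0.0553 to 0.0708) and with library totals alone (0.57, adjusted p = 0.0528). On HFD the groups overlapped for both treatments, from 50.6 to 158 CPM in HFD control and 79.9 to 151 CPM in HFD C-3BO, and from 54.1 to 91.1 CPM in HFD saline and 58.9 to 111 CPM in HFD CL. The log2 fold changes there were 0.19 ± 0.22 for C-3BO (adjusted p = 0.530) and 0.23 ± 0.23 for CL (adjusted p = 0.516).

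*Acot7* (NM_133348, mm9 chr4:151552209-151645964), for a cytosolic enzyme best known from brain, fell with CL on chow. It was at 22.2, 26.0, 27.1, 24.9 and 34.5 CPM in Chow saline and at 18.9, 20.6, 22.2, 19.2 and 23.7 CPM in Chow CL, a log2 fold change of -0.37 ± 0.12 (adjusted p = 0.0302). The ranges overlapped, and the call was lost without Chow saline replicate 5 (-0.26, adjusted p = 0.129), without Chow CL replicate 1, 2 or 4 (-0.33 to -0.36, adjusted p = 0.0580 to 0.0840), with the muscle sum as a covariate (-0.33, adjusted p = 0.0707) and in a fit of these 10 libraries alone (-0.38, adjusted p = 0.0614). In the 3 other treatment comparisons its log2 fold change was between -0.21 and -0.17, with adjusted p-values of 0.170 to 0.287.

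*Acot13* (NM_025790, mm9 chr13:24909824-24923358, minus strand) went the other way from most members in Chow C-3BO. It was at 185, 147, 201, 247 and 192 CPM in Chow control and at 117, 117, 163, 116 and 111 CPM in Chow C-3BO. Replicate 3 was the only C-3BO library within the range of the controls, and the log2 fold change was -0.64 ± 0.10 (adjusted p = 1.14e-05). On HFD the ranges were 132 to 148 CPM in controls and 124 to 173 CPM in C-3BO, and the log2 fold change was 0.06 ± 0.10 (adjusted p = 0.710). With CL, all values lay between 109.6 and 146 CPM, with log2 fold changes of -0.04 ± 0.10 on chow (adjusted p = 0.869) and -0.03 ± 0.11 on HFD (adjusted p = 0.893). Group means of *Acot13* were 194 CPM in Chow control and 114 to 142 CPM in the other groups, with 127 CPM in Chow saline. Its calls with C-3BO on chow, with HFD in control mice and in the interaction terms below all use Chow control, so they are not separate results.

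Skeletal muscle markers stood highest in the group in which *Acot13* was highest, Chow control, with a median sum of 5497 CPM against 1282 CPM in Chow C-3BO and 57.7 CPM in HFD control. With this sum as a covariate, the value of *Acot13* in C-3BO on chow was -0.65 ± 0.11 (adjusted p = 1.97e-05). The covariate was chosen after the data were seen.

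**Figure D5:**
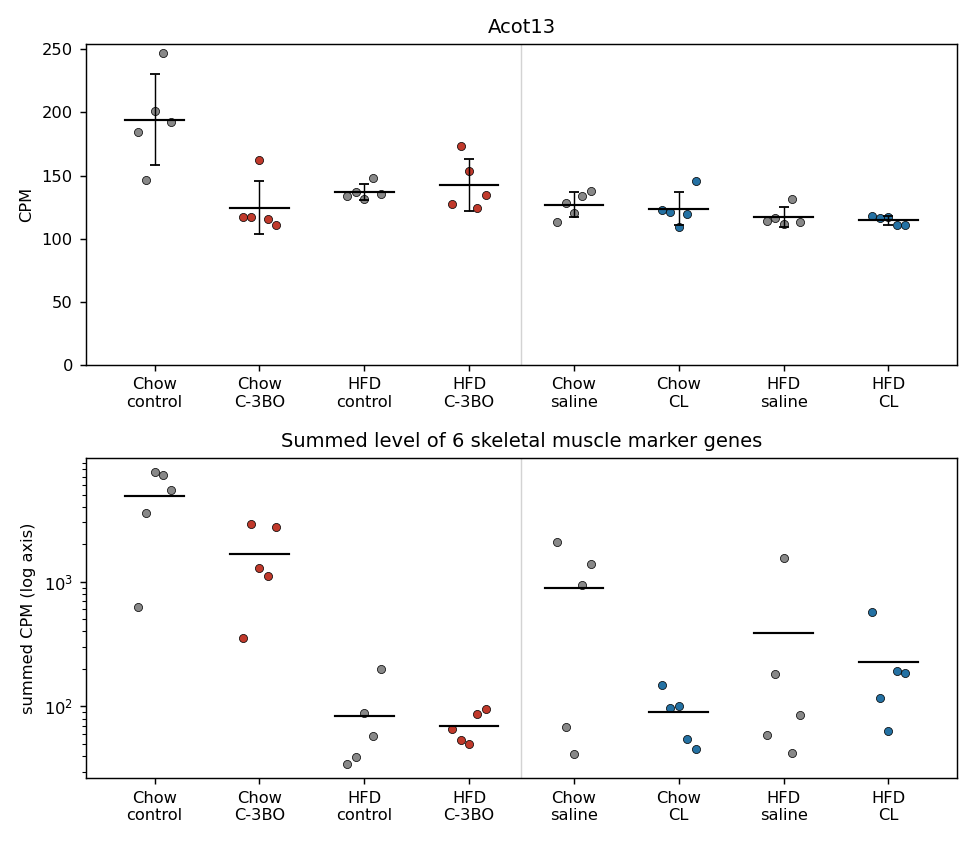
Level of *Acot13* (top, CPM) and summed level of 6 skeletal muscle markers (bottom, CPM on a log axis) for each library, by group (x axis), with group means as lines and, for *Acot13*, the SD as an error bar. Chow control holds 147 to 247 CPM of *Acot13* and muscle sums of 627 to 7576 CPM, and the HFD groups of the same cohort 124 to 173 CPM and 34.6 to 199 CPM.

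Whether the effects differed between diets or between treatments was tested by interaction terms. The effect of C-3BO differed between diets for 1 of 7 members, where 2.09% of all tested genes did. This was *Acot13*, with a difference of 0.70 ± 0.15 on the log2 scale (HFD minus chow, adjusted p = 0.00584). The effect of CL differed between diets for none of 7 by edgeR, with none at an unadjusted p-value under 0.05 and none by DESeq2, where 0.0151% of all tested genes did. The values that the choice of genes had used are given side by side only, and for *Acot12* the log2 fold changes of C-3BO were 2.88 ± 0.36 on chow and 6.04 ± 0.51 on HFD.

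Between treatments on chow, 2 of 7 members differed, where 6.24% of all tested genes did. The difference (C-3BO minus CL) was 1.96 ± 0.51 for *Acot4* (adjusted p = 0.0159) and -0.61 ± 0.15 for *Acot13* (adjusted p = 0.00952), and the latter was lost in a fit of the 20 chow libraries alone (-0.58, adjusted p = 0.0521). For *Acot1* it was 3.22 ± 1.06 (adjusted p = 0.0601), which passed without Chow CL replicate 3 (3.97, adjusted p = 0.0205) or Chow saline replicate 2 or 3 (3.497 and 3.496, adjusted p = 0.0400 and 0.0397). On HFD none of the 7 differed by edgeR, with none at an unadjusted p-value under 0.05 and none by DESeq2, where 1.8% of all tested genes did. The difference for *Acot4* there was 1.08 ± 0.58 (adjusted p = 0.419). The C-3BO and CL effects come from separate cohorts that also differed in age and injection, each with its own controls.

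On HFD, *Acot12* and *Acot13* were lower in control mice. Among the 7 genes tested in all comparisons *Acot13* fell and none rose, where 15.4% of all tested genes rose and 17.5% fell. *Acot12* fell from the 0.560 to 1.60 CPM of Chow control to at most 0.178 CPM in HFD control, with no overlap, a log2 fold change of -3.59 ± 0.57 (adjusted p = 6.46e-06) and a ratio of pooled counts, 5 against 60, of 0.0714 (0.0224 to 0.176). Since *Acot12* passed the filter through treated groups, its p-values are a description. *Acot13* was below the mean of Chow control in 5 of 5 HFD control libraries, of which 1 was within its range, and fell by 0.50 ± 0.10 on the log2 scale (adjusted p = 0.000223). With the muscle sum as a covariate the values were -3.52 (adjusted p = 0.00453) and -0.52 (adjusted p = 0.0230). Muscle sums did not overlap between chow and HFD, at 627 to 7576 and 34.6 to 199 CPM in control mice and 352 to 2933 and 49.8 to 95.9 CPM in C-3BO mice. Diet and muscle content can therefore not be told apart in these mice, with or without the covariate.

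For members that did not pass in control mice, log2 fold changes between the diets ran from -0.62 (*Acot4*) to 0.60 (*Acot1*). The median of the 9 members other than *Acot3* was -0.24, against 0 over all tested genes. Calls of *Acot11*, *Acot4*, *Acot2* and *Acot7* turned on single libraries. *Acot11* had a log2 fold change of -0.28 ± 0.32 (adjusted p = 0.536) and passed without HFD control replicate 4, its highest library (-0.77, adjusted p = 0.0493). *Acot4* was at -0.62 ± 0.38 (adjusted p = 0.212) and passed without HFD control replicate 3, at 6.66 CPM (-1.13, adjusted p = 0.0245). *Acot2* was at 0.49 ± 0.22 (adjusted p = 0.0822) and passed without HFD control replicate 1 (0.61, adjusted p = 0.0377) or 2 (0.65, adjusted p = 0.0186). *Acot7*, at -0.24 ± 0.12 (adjusted p = 0.118), passed without HFD control replicate 5 (-0.33, adjusted p = 0.0373).

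In C-3BO mice *Acot11* was lower and *Acot9* higher on HFD. Among the 7 genes tested in all comparisons only *Acot9* passed, where 13.5% of all tested genes rose and 12.2% fell. *Acot11* went from 742 to 1246 CPM in Chow C-3BO to 246 to 808 CPM, 4 of 5 HFD libraries being below all chow libraries, with a log2 fold change of -1.19 ± 0.32 (adjusted p = 0.00576). The gene was chosen for its high level in C-3BO mice, so its p-values here are a description. Its log2 fold change was -1.67 without HFD C-3BO replicates 4 and 5 (adjusted p = 0.00168) and -0.76 with the muscle sum as a covariate, which lost the call (adjusted p = 0.192). *Acot9* was at 0.29 ± 0.09 (adjusted p = 0.0132) and did not pass without HFD C-3BO replicate 4 (0.24, adjusted p = 0.0655), without HFD C-3BO replicates 4 and 5 (0.28, adjusted p = 0.0568), without Chow C-3BO replicate 3 (0.25, adjusted p = 0.0628), in a fit of these 10 libraries alone (0.27, adjusted p = 0.0588) or with the muscle covariate (0.21, adjusted p = 0.226).

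*Acot12* in C-3BO mice was at -0.44 ± 0.32 between the diets (adjusted p = 0.345), with overlapping ranges, while it fell in control mice. *Acot4* was at -0.74 ± 0.34 (adjusted p = 0.109) and passed without Chow C-3BO replicate 5 (-0.92, adjusted p = 0.0490) or HFD C-3BO replicate 2 (-0.99, adjusted p = 0.0493). The members that did not pass ran from -0.74 (*Acot4*) to 0.19 (*Acot13*). The median of the 9 members other than *Acot3* was -0.19, against 0.03 over all tested genes. *Acot13* was at 0.19 ± 0.10 (adjusted p = 0.177) and passed without Chow C-3BO replicate 3 (0.28, adjusted p = 0.0392).

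In the injected mice, all HFD libraries carried liver and epididymis transcripts and no chow library did, so diet and these transcripts cannot be told apart. Between HFD saline and Chow saline, 1 of the 7 genes tested in all comparisons rose and 1 fell, where 7.45% of all tested genes rose and 8.04% fell. Of 5 macrophage markers 4 rose and 1 fell in the same comparison (median 1.21), with sums of 220 to 559 CPM in HFD saline and 103 to 212 CPM in Chow saline, and their part was not tested. *Acot9* was at 0.33 ± 0.09 (adjusted p = 0.0116), and did not pass in a fit of these 10 libraries alone (0.34, adjusted p = 0.0617). *Acot8* was at -0.47 ± 0.15 (adjusted p = 0.0333), a call that was lost without Chow saline replicate 1, 4 or 5 or HFD saline replicate 1, 3 or 4 (-0.47 to -0.37, adjusted p = 0.0552 to 0.137), with library totals alone (-0.30, adjusted p = 0.136), in the fit of 10 libraries (-0.46, adjusted p = 0.0842) and with the muscle covariate (-0.38, adjusted p = 0.0788). The members that did not pass ran from -0.93 (*Acot4*) to 1.43 ± 0.75 (*Acot12*, adjusted p = 0.201). The median of the 9 members other than *Acot3* was -0.12, against -0.01 over all tested genes.

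Between HFD CL and Chow CL, 2 of 9 rose and 1 fell, where 10.9% of all tested genes rose and 12.7% fell. *Acot12* rose from 1.12 to 2.96 CPM to 1.45 to 7.73 CPM, with 3 of 5 libraries above all chow libraries and a log2 fold change of 1.29 ± 0.35 (adjusted p = 0.00601). *Acot9* rose in 5 of 5 libraries above all of Chow CL, by 0.46 ± 0.09 on the log2 scale (adjusted p = 0.000219). *Acot11* fell in 5 of 5 libraries below all of Chow CL, with a log2 fold change of -1.03 ± 0.32 (adjusted p = 0.0169). *Acot11* and *Acot12* were chosen for high levels in the CL groups, so their p-values here are a description. The members that did not pass ran from -0.26 (*Acot2*) to 0.22 (*Acot1*), and the median of the 9 members other than *Acot3* was -0.07, against -0.01. Liver sums were 144 to 288 CPM in HFD CL and 2.93 to 5.22 CPM in Chow CL, and their part in these values was not tested. The diet and treatment comparisons share libraries, so their values are not independent.

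Across all 40 libraries, which share groups and differ in depth, the genes most like *Acot11* in log2 CPM were *Dhrs7* (Pearson's r = 0.933), *Derl1* (0.929), *Mrpl50* (0.922), *Eif4e3* (0.918) and *Cyb5b* (0.911). Those most like *Acot12* were *Lyplal1* (0.928), *Rbp4* (0.919), *Elovl3* (0.915), *Aldh5a1* (0.909) and *Ccdc122* (0.898). *Elovl3*, a fatty acid elongase, is a known marker of active BAT. *Acot11* and *Acot12* were chosen for high levels in treated groups, so genes that differ between the groups can reach a high r with them. For the genes in these lists, r within groups was not taken. Among the members, r was 0.823 for *Acot1* with *Acot4*, 2 genes of the cluster whose counts may be split, and 0.823 for *Acot4* with *Acot8*, which have no stretch of 50 bases in common. Within groups, after each group's mean was taken off, these fell to 0.696 and 0.599. For *Acot11* with *Acot12*, r was 0.623 over all libraries and -0.01 within groups.

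Of 10 other thioesterase genes, which include *Acot5*, *Acot6* and *Acot10*, 5 had enough counts to be tested. With C-3BO 2 of them rose on either diet, where 15.8% of all tested genes rose on chow and 19.3% on HFD, with median log2 fold changes of 0.24 on chow and 0.52 on HFD, against -0.03 and -0.02 over all tested genes. These were *Them4*, for a mitochondrial thioesterase (0.55 ± 0.19 and 0.97 ± 0.19, adjusted p = 0.0246 and 0.000115), and *Hibch*, for the hydrolase of valine breakdown (0.24 ± 0.09 and 0.52 ± 0.09, adjusted p = 0.0448 and 4.75e-05). With CL 1 of 5 rose on chow (*Hibch*, 0.37 ± 0.09, adjusted p = 0.00570) and 2 on HFD (*Them4*, 0.79 ± 0.21, adjusted p = 0.00495, and *Hibch*, 0.48 ± 0.10, adjusted p = 0.000275), with medians of -0.17 and 0.19, where 9.16% and 12.7% of all tested genes rose. On HFD 1 of 5 fell in control mice (*Hibch*, -0.25 ± 0.09, adjusted p = 0.0343) and 1 of 5 in saline mice (*Ppt2*, -0.30 ± 0.10, adjusted p = 0.0256), where 17.5% and 8.04% of all tested genes fell, and none of 5 passed in C-3BO or CL mice. *Acot6* was tested and did not pass in any comparison.

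The acyl-CoA synthetases, which make the acyl-CoA that the thioesterases hydrolyse, number 19 among the tested genes. With C-3BO 9 rose, 1 fell and 9 did not pass on chow (median 0.67), where 15.8% of all tested genes rose and 15.9% fell, and 9 rose, none fell and 10 did not pass on HFD (median 0.56), where 19.3% rose and 15.5% fell. With CL 6 rose, 1 fell and 12 did not pass on chow (median 0.15), where 9.16% of all tested genes rose, and 7 rose, none fell and 12 did not pass on HFD (median 0.19), where 12.7% rose. On HFD 8 fell, 1 rose and 10 did not pass in control mice (median -0.15), and 7 fell, 1 rose and 11 did not pass in C-3BO mice (median -0.25), where 17.5% and 12.2% of all tested genes fell. The medians over all tested genes lay between -0.03 and 0.03 in these comparisons. With CL 6.13% of all tested genes fell on chow and 10.8% on HFD. Between the diets 15.4%, 13.5%, 7.45% and 10.9% of them rose in control, C-3BO, saline and CL mice. *Acsl5*, a long-chain synthetase, rose by 1.502 ± 0.26 and 1.65 ± 0.26 with C-3BO on chow and HFD and by 2.07 ± 0.26 and 2.03 ± 0.27 with CL, and fell by 1.97 ± 0.26 with HFD in control mice. In injected mice 9 (saline) and 7 (CL) fell with HFD, where 8.04% and 12.7% of all tested genes fell, and 1 rose, which was *Slc27a5*, a liver bile acid-CoA synthetase, at 2.92 ± 0.58 and 3.79 ± 0.61. *Slc27a5* also rose with C-3BO on HFD (2.86 ± 0.54), where 2 libraries carried liver transcripts, and this part was not tested.

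Of 24 tested targets of PPARs in fatty acid oxidation, 16 rose, 2 fell and 6 did not pass with C-3BO on chow (median 0.59, against -0.03 over all tested genes), where 15.8% of all tested genes rose. On HFD 15 rose, 2 fell and 7 did not pass (median 0.60, against -0.02), where 19.3% rose. With CL 9 rose, 3 fell and 12 did not pass on chow (median 0.23, against -0.01), where 9.16% rose, and 11 rose, 1 fell and 12 did not pass on HFD (median 0.37, against -0.01), where 12.7% rose. *Ehhadh*, a peroxisomal β-oxidation enzyme, rose with C-3BO on chow (3.54 ± 0.54, adjusted p = 4.70e-06) and on HFD (2.45 ± 0.52, adjusted p = 0.000294), and was at -0.31 ± 0.49 and 0.81 ± 0.52 with CL (adjusted p = 0.734 and 0.273). *Acaa1b*, a peroxisomal thiolase, rose in all 4 comparisons, by 2.87 ± 0.25 and 2.98 ± 0.25 with C-3BO and by 1.46 ± 0.23 and 2.54 ± 0.25 with CL. With HFD, 6 rose and none fell in control mice (median 0.10), 7 rose and none fell in C-3BO mice (median 0.24), 4 rose and 2 fell in saline mice (median 0.15) and 9 rose and 1 fell in CL mice (median 0.28). The shares of all tested genes that rose were 15.4%, 13.5%, 7.45% and 10.9% in these 4 diet comparisons, with medians of 0, 0.03, -0.01 and -0.01. The shares that fell there were 17.5%, 12.2%, 8.04% and 12.7%. With C-3BO on chow and HFD 15.9% and 15.5% of all tested genes fell, and with CL 6.13% and 10.8%.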

How the data were processed

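The authors isolated poly(A) RNA from BAT, made TruSeq libraries, sequenced them on an Illumina HiSeq, mapped the reads to mm9 with STAR and counted exonic reads per RefSeq gene by means of HOMER and iRNA-seq. The deposited values are these raw counts per gene and library. Read length, strand use in the counting and tool versions are not given in the sources used here. All values were checked to be whole numbers, and no 2 libraries were identical. Groups came from the labels.

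Genes were kept with filterByExpr of edgeR 4.0.16 (minimum count 10), which left 13277 of 20295 genes and all 10 members. All 40 libraries entered a single quasi-likelihood model with a mean for each group and TMM factors (0.798 to 1.18). P-values were adjusted over all tested genes by the method of Benjamini and Hochberg, and a gene rose or fell at an adjusted p-value under 0.05. The standard error is the log2 fold change divided by the square root of F. Ratios of pooled counts carry exact binomial 95% intervals. Correlations among the members used log2(CPM + 0.5), and those of *Acot11* and *Acot12* with the genes most like them used log2 CPM with a prior count of 2. The edgeR and DESeq2 steps were tested on simulated counts.

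The members and gene lists were chosen with earlier results of these data known. Besides the 10 members, the text names *Acot5*, *Acot6* and *Acot10*, the 5 genes most correlated with *Acot11* and with *Acot12*, and up to 3 genes of a list with the largest changes among those past the threshold. One gene that this rule names is not reported here. Alternatives were DESeq2 1.42.0, RLE factors, library totals alone, no filter, at least 10 counts in every library, the libraries of a comparison alone, a replicate block, leaving out each library, and leaving out HFD C-3BO replicates 4 and 5. A fit with the log2 sum of 6 skeletal muscle markers as a covariate was added after the data were seen. Gene positions are on mm9, numbered from 1, and promoter windows on GRCm38.p6. R 4.3.3, Python 3.11.15, pandas 2.3.3, scipy 1.17.1 and matplotlib 3.10.9 were used. Protein sequences were not analysed here.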

Additional observations from a re-analysis of the deposited data

Results flagged for a closer look

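In 8 of 76 groups of 5 libraries tested, 1 library stood apart from the other 4 by Dixon's criterion, which chance alone meets in about 1 of 20 groups. *Acot1* was at 5.10 CPM in Chow saline replicate 5, against 0.334 to 1.40 CPM in the others, and *Acot4* was at 8.42 CPM in the same library, against 4.20 to 5.30 CPM. *Acot4* was at 6.66 CPM in HFD control replicate 3, against 1.60 to 2.96 CPM. *Acot3* was at 0.330 CPM in Chow control replicate 1, which is 4 counts, against 0 to 0.0695 CPM. *Acot11* was at 559 CPM in Chow CL replicate 5, against 1012 to 1076 CPM, and *Ucp1* was lowest in that library too. *Acot11* was at 336 CPM in HFD saline replicate 5, against 151 to 172 CPM. *Acot13* was at 163 CPM in Chow C-3BO replicate 3, against 111 to 117 CPM, and at 131 CPM in HFD saline replicate 4, the library with 849126 counts, against 111 to 116 CPM.

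Effects differed between groups by an interaction term of edgeR for 2 members. The difference of the 2 diets in the effect of C-3BO (HFD minus chow) was 0.70 ± 0.15 on the log2 scale for *Acot13* (adjusted p = 0.00584), with adjusted p-values of 0.000289 to 0.0456 over 29 alternatives. On chow, the difference between treatments (C-3BO minus CL) was 1.96 ± 0.51 for *Acot4* (adjusted p = 0.0159, 0.00329 to 0.0477 over 27 alternatives) and -0.61 ± 0.15 for *Acot13* (adjusted p = 0.00952, 0.00143 to 0.0521 over 28 alternatives, of which 1 did not pass). Both terms of *Acot13* use Chow control, the group in which it was highest.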

How the results depend on the processing

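No value of a member that passed a threshold, or was described with no test, changed direction under any alternative, while 648 single values were kept and 41 no longer passed. The 648 include values of *Acot11* and *Acot12* without a test, kept where they moved by less than the gene's largest SD within a group. Values that did not pass at first are not among them. The count of members past the threshold stayed within 1.5 times in 235 cases and moved further in 25. These counts include *Acot3* and, between the diets, *Acot11* and *Acot12*, and show only how far the count moved between fits. With library totals alone it was 1 in place of 3 for CL on chow, 4 in place of 2 for HFD in control and in C-3BO mice, and 1 in place of 2 for HFD in saline mice. Calls gained there were those of *Acot2* and *Acot9* (0.64 and 0.22) in control mice, of *Acot8* and *Acot13* (0.33 and 0.38) in C-3BO mice, and of *Acot7* with C-3BO (-0.41 on chow and -0.34 on HFD). With at least 10 counts in every library, which leaves 5 or 6 members to test, it was 4 in place of 7 and 2 in place of 5 for C-3BO on chow and HFD, 1 in place of 2 for HFD in control mice and 1 in place of 2 for C-3BO minus CL on chow. With the libraries of a comparison alone it was 1 in place of 2 for HFD in control mice, HFD in C-3BO mice and C-3BO minus CL on chow, and 0 in place of 2 for HFD in saline mice. Without HFD C-3BO replicates 4 and 5 it was 1 for HFD in C-3BO mice, and with the muscle covariate it was 0 there and 1 for HFD in saline mice. Apart from the changes that fewer genes or libraries bring, the cause was not tested. Leaving out 1 library gave 1 to 3 for CL on chow, 2 to 2 for CL on HFD, 6 to 7 and 4 to 5 for C-3BO, 2 to 3, 1 to 3, 1 to 2 and 3 to 3 for HFD in control, C-3BO, saline and CL mice, and 2 to 3 for C-3BO minus CL on chow.

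Library totals alone moved the median log2 fold change of all genes to -0.15 for CL on either diet, -0.23 and -0.19 for C-3BO on chow and HFD, and 0.15, 0.21, 0.16 and 0.16 for HFD in control, C-3BO, saline and CL mice. Genes higher and lower were then 699 and 1926 in place of 1216 and 814 for CL on chow, 982 and 2533 in place of 1686 and 1436 for CL on HFD, 1045 and 4127 in place of 2093 and 2108 for C-3BO on chow, and 1601 and 3723 in place of 2556 and 2062 for C-3BO on HFD. For HFD they were 3512 and 1413 in place of 2044 and 2321 in control mice, 3858 and 862 in place of 1791 and 1617 in C-3BO mice, 2423 and 436 in place of 989 and 1068 in saline mice, and 2869 and 730 in place of 1445 and 1692 in CL mice. Counts over all genes moved by over 1.5 times for HFD in control mice (from 4365 to 1655 with the muscle covariate), in C-3BO mice (from 3408 to 2030 with that covariate) and in saline mice (from 2057 to 1242 with their libraries alone). The C-3BO by diet term, with 278 genes, had 456 by DESeq2, 168 with its libraries alone and 126 without HFD C-3BO replicates 4 and 5. The CL by diet term, with 2, had 36 by DESeq2, 14 with its libraries alone, 6 with the covariate and 0 with at least 10 counts in every library. C-3BO minus CL on HFD, with 239, had 109 with at least 10 counts in every library and 113 without those 2 replicates.

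Libraries of groups with the same replicate number were not paired, since their deviations correlated at r = -0.376 to 0.444 and no comparison had all 5 above 0.1. With a replicate block the counts of members past the threshold were 3 and 2 for CL, 7 and 5 for C-3BO, 2, 2, 2 and 3 for HFD in control, C-3BO, saline and CL mice, and 1, 0, 2 and 0 for the interactions. These counts too include *Acot3* and, between the diets, *Acot11* and *Acot12*. Of all 13277 tested genes, the block fit called 2013 and 2995 for CL and 4121 and 4601 for C-3BO on chow and HFD. It called 4309, 3363, 1956 and 3095 for HFD in control, C-3BO, saline and CL mice, and 254, 2, 785 and 197 for the interactions. Depth limits *Acot1*, *Acot3* and *Acot12*, whose control libraries hold few counts.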

Other observations

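The uninjected and saline-injected controls came from separate cohorts that differ in injection and age, and were compared by no test. On chow, *Acot12* was at 0.560 to 1.60 CPM in Chow control and at 0 to 0.216 CPM in Chow saline, which did not overlap. *Acot13* was at 147 to 247 CPM in Chow control and at 113 to 138 CPM in Chow saline, which did not overlap either, and the muscle sums were 627 to 7576 CPM and 41.5 to 2075 CPM. On HFD, *Acot12* was at 0 to 0.178 CPM in HFD control and at 0 to 0.476 CPM in HFD saline, and these ranges overlapped.

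*Acot5*, a peroxisomal member of the chromosome 12 cluster that had too few counts to be tested, had 0 counts over all 5 libraries of Chow control, Chow saline and HFD saline and 1 count over those of HFD control. It had 6 counts over Chow C-3BO, 4 over HFD C-3BO, 11 over Chow CL and 9 over HFD CL. Of its stretches of 50 bases, 22.2% also occur in other genes of the cluster, and these counts are too few for a fold. *Acot10* had 12 to 19 counts over each group. *Acot6* was at 2.69 to 5.20 CPM as a group mean, highest in HFD C-3BO, where its log2 fold change against HFD control was 0.63 ± 0.27 (adjusted p = 0.0624).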
